A study of Rattus norvegicus with 21 samples.

Results

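Early reperfusion was set against late reperfusion in bulk RNA sequencing libraries of rat heart, with 3 libraries of the group MI1h_R against 3 of the group MI6h_R. The 6 libraries were taken by their labels out of 21 libraries in 7 groups of 3, and all 11742 genes with enough counts entered the comparison. All groups are Sprague Dawley rats, and the labelled tissue is the infarct zone. In MI1h_R the left anterior descending coronary artery was tied for 1 h and the tissue was collected after 23 h of reperfusion. In MI6h_R the artery was tied for 6 h and reperfused for 18 h, so that both groups were collected at 24 h. In MI24h the artery stayed tied for the whole 24 h, and Sham is the sham-labelled control group, whose procedure is not described in the labels. The groups MI1h_F and MI6h_F repeat the timings of MI1h_R and MI6h_R with an added F. In MI24h_F the artery stayed tied for 24 h with F, and its 3 libraries entered the fits without being compared here. F is not explained in the labels, though the design text speaks of fenofibrate given beforehand, a drug that activates the lipid-sensing receptor PPARα. Nor is it stated that the libraries within a group stem from different animals, so p-values measure only the spread between these libraries, which may be technical. Age and sex are not stated in the labels.

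Tying a coronary artery kills heart muscle progressively, and opening it early spares muscle that would otherwise be lost. Blood that returns also brings leukocytes and plasma proteins into the injured wall. Neutrophils enter first, monocytes and macrophages follow, and dividing macrophages, endothelial cells and fibroblasts then clear and rebuild the tissue. Estrogen-related receptors (ERR), named in the title of the study, are nuclear receptors that drive genes of mitochondrial energy production and contraction.

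Total counts lay between 12208041 and 13834832 in MI1h_R and between 14195954 and 18393795 in MI6h_R. Mitochondrially encoded transcripts made up 15.3% ± 3.37 of the counts in MI1h_R and 14.1% ± 3.35 in MI6h_R (SD, n = 3 each), against 36.3% ± 2.54 in Sham (SD, n = 3). RNA of heart muscle was present in both groups, with summed cardiomyocyte markers at 14700 to 18000 CPM (counts scaled to library size, here with the trimmed mean of M values, TMM) in MI1h_R and 5890 to 14700 in MI6h_R. They were 80300 to 141000 CPM in Sham. In a principal component analysis of the 6 libraries, the first component, with 46.3% of the variance, put MI1h_R 11 at 41.1 and MI1h_R 31 at 55.5. MI1h_R 41 stood apart from them at -4.76, and the 3 libraries of MI6h_R lay between -45.5 and -18.4. Results are therefore also given without single libraries.

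Short transcripts differed between the groups as a class. Dividing each gene's counts by its TPM, the authors' length-scaled abundance, gave a relative gene length. The shortest 10% of genes took 18.04%, 19.5% and 15.8% of the counts in MI1h_R 11, 31 and 41, against 15.2%, 13.5% and 14.8% in MI6h_R 11, 21 and 31. Every library of MI1h_R was above every library of MI6h_R. These shares include 7 of the 13 mitochondrial genome genes, so they also depend on how much mitochondrial RNA a library held. The median log2 fold change, MI1h_R over MI6h_R, was 0.38 in the shortest 10% of genes and -0.25 in the longest 10%, against 0.014 over all genes tested. Pearson's r across genes between log2 length and log2 fold change was -0.258, a description over 11742 genes that are not independent. Without single libraries r lay between -0.29 and -0.211 and the median of the shortest 10% between 0.33 and 0.47. In MI1h_F over MI6h_F, r was -0.0423. Counts are therefore also given after a smooth trend of length was removed from each library, which left r at 0.019. The cause of the length trend was not tested.

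**Figure D1:**
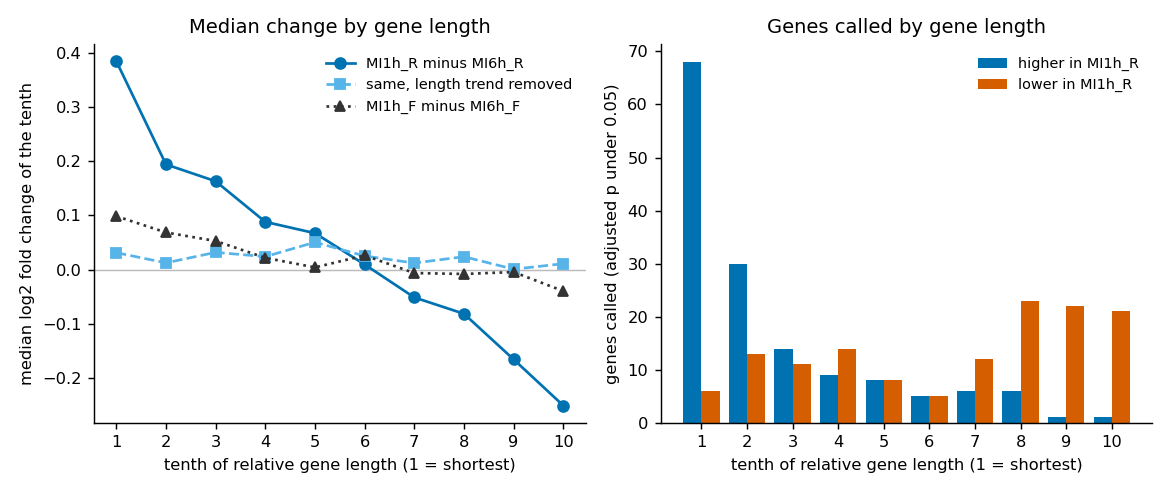
Median log2 fold change in 10 equal groups of relative gene length, for MI1h_R over MI6h_R before and after removal of the length trend and for MI1h_F over MI6h_F. The number of genes called in each group is shown before removal only. For MI1h_R over MI6h_R the median falls from 0.384 in the shortest group to -0.25 in the longest. Once the trend is removed it lies between 0.0011 and 0.0507 in all 10.

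In edgeR's quasi-likelihood test with Benjamini-Hochberg adjustment, 283 of 11742 genes were called at an adjusted p under 0.05, which is 2.41% of those tested. MI1h_R was higher for 148 genes, with a median log2 fold change of 1.24, and lower for 135, with a median of -0.924. In what follows, rose and fell mean higher and lower in MI1h_R than in MI6h_R, not a change from Sham. The share called higher was 1.26% and the share called lower 1.15%. The 3 libraries of MI1h_R did not overlap the 3 of MI6h_R for any of the 283, which held for 24.6% of all genes tested. At an unadjusted p under 0.05, 2586 of the 11742 genes passed in either direction. List counts at that cut in what follows are to be read beside this number. Some symbols carry identical counts in every library and cannot be separated, so the 283 genes hold 268 distinct profiles. With the length trend removed, 116 genes were higher and 135 lower (0.988% and 1.15%), and 92 of the 148 and 93 of the 135 were still called. Of the 68 symbols called higher among the shortest 10%, 17 were subunits of the respiratory chain or ATP synthase, 8 cytosolic and 3 mitochondrial ribosomal proteins, and 40 others.

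The count of calls moved with single libraries. It was 62 without MI1h_R 11, 22 without MI1h_R 31, 25 without MI6h_R 11, 24 without MI6h_R 21 and 112 without MI6h_R 31. Without MI1h_R 41, the library that stood apart, it was 1281, with 551 higher and 730 lower. With library size alone in place of TMM scaling, 74 genes were higher and 106 lower. On TPM a limma trend fit called 90 higher and 876 lower, with the median of all genes at -0.23 on the log2(TPM + 1) scale. TPM divides each gene by its length, which largely cancels in a fold change between libraries. This fit is therefore no check on the length trend, and r was -0.258 in it. Only 11 genes stayed called without each of the 6 libraries in turn, and they were Akap12, Apln, Il4r, Ankh, Krt7, Grem1, Nr2f2, Gpr4, Ccdc34, Zbed5 and Rpl41. Of these, Gpr4, an acid-sensing receptor of endothelium, Ccdc34 and Zbed5 were chosen after their values were seen, with log2 fold changes of -1.07, 1.48 and -1.30 (adjusted p = 0.00624 each). Akap12 was the only gene called in all 18 alternatives. Of 75 called genes named in the text, 45 lost their call without MI1h_R 11, 56 without MI1h_R 31, 2 without MI1h_R 41, 57 without MI6h_R 11, 60 without MI6h_R 21 and 29 without MI6h_R 31.

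**Figure D2:**
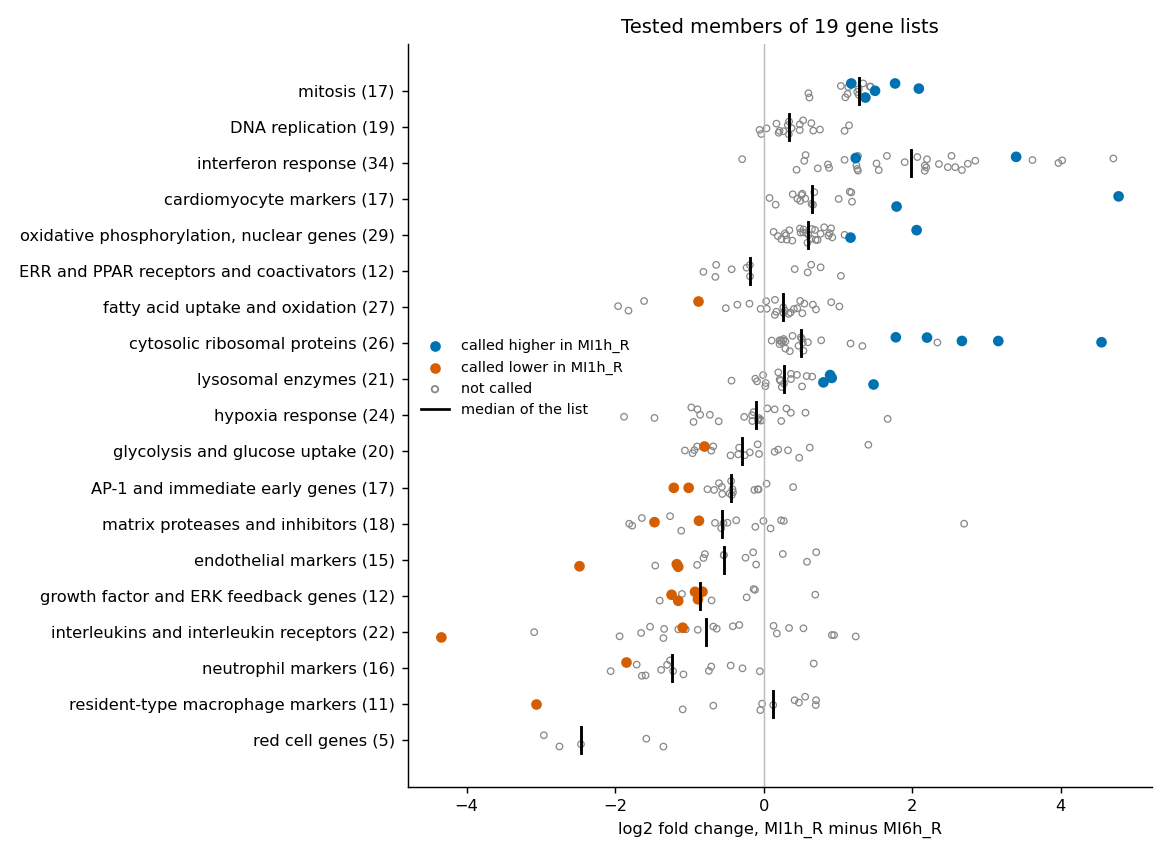
Log2 fold change of MI1h_R over MI6h_R for each tested member of 19 gene lists, with the median of each list as a bar and called members in colour. All 17 mitosis genes and 33 of 34 interferon response genes lie above 0, and 15 of 16 neutrophil markers lie below 0.

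Part of the genes of cell division rose after early reperfusion. Of 17 mitosis genes tested, 5 rose, none fell and 12 did not pass, with a median log2 fold change of 1.3. All 17 had a positive log2 fold change, and for 15 every library of MI1h_R was above every library of MI6h_R, which held for 13.2% of all genes. The summed level of the list was 347, 561 and 615 CPM in MI1h_R, from lowest to highest, and 201 to 228 CPM in MI6h_R. In bulk tissue, fewer cells of a type and less RNA per cell cannot be told apart, here or in any result that follows.

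Many genes of late cell division share in their promoters the short element TTTGAA, known as the CHR. It was found on either strand of the 300 bases around the start (250 before and 50 after) in 10 of the 13 tested mitosis genes with a RefSeq promoter, 76.9%. The element was present in 18.3% of all 33469 promoters of the table, and in 1 of 15 DNA replication genes. The element TTTCCCGC, to which E2F factors bind, was in 0 of those 13 mitosis promoters and in 3 of 15 DNA replication promoters, against 0.974% of all promoters. These 2 elements do not overlap each other. The 100 bases before the start of Kif23 (chr8:71320585-71320684, minus strand), Prc1 (chr1:143659381-143659480, plus strand) and Cks2 (chr17:13727520-13727619, minus strand), from RefSeq on build GRCr8, are shown because these 3 genes were called and carry a match close to the start. Capitals mark the element, which reads TTCAAA where it lies on the opposite strand. It begins 79 bases before the start in Kif23, 18 in Prc1 and 19 in Cks2.
Kif23: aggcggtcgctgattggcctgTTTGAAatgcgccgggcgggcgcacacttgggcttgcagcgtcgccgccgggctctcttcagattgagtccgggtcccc
Prc1: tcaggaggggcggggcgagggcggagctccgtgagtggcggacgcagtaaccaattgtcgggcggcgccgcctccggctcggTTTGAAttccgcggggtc
Cks2: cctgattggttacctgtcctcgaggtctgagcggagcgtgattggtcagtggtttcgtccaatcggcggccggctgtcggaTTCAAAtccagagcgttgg

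Nusap1, a protein that binds spindle microtubules, was at 22.5, 19.9 and 10.1 CPM in MI1h_R 11, 31 and 41, against 4.02, 4.21 and 4.02 CPM in MI6h_R 11, 21 and 31. The groups did not overlap, and MI1h_R 41 was the lowest of its group, as it was for the other division genes named here. The log2 fold change was 2.10 ± 0.42 (SE), with an adjusted p of 0.0191. Bub1, a kinase of the spindle checkpoint, was at 38.9, 38.0 and 23.9 CPM in MI1h_R, against 13.1, 14.8 and 16.4 CPM in MI6h_R. Its log2 fold change was 1.18 ± 0.24 (SE), with an adjusted p of 0.0182. Kif23, a motor of the central spindle, was at 26.3, 26.4 and 14.7 CPM in MI1h_R, against 6.69, 8.73 and 8.38 CPM in MI6h_R, a log2 fold change of 1.5 (adjusted p = 0.0394). Prc1, which bundles microtubules at cytokinesis, was at 50.2, 40.7 and 26.3 CPM in MI1h_R, against 15.2, 13.7 and 16.5 CPM in MI6h_R, a log2 fold change of 1.37 (adjusted p = 0.0428). Ube2c, a ubiquitin-conjugating enzyme of the anaphase-promoting complex, is the remaining called member, with a log2 fold change of 1.77. Cks2, a subunit of the cyclin-dependent kinases, is among the 15 largest rises, at 21.1, 23.6 and 14.9 CPM in MI1h_R, against 4.17, 4.996 and 4.80 CPM in MI6h_R. edgeR gave a log2 fold change of 2.09 ± 0.38 (SE), with an adjusted p of 0.0129, and the call was lost without MI1h_R 31, MI6h_R 11 or MI6h_R 21 (adjusted p up to 0.0618). Stmn1, which destabilises microtubules, and Cdca3, a mitotic entry factor, were chosen after their values were seen, and rose by log2 fold changes of 1.67 and 1.81. Stmn1 was not called without MI1h_R 11, MI1h_R 31, MI6h_R 11 or MI6h_R 21 (adjusted p up to 0.108), and Cdca3 was called only without MI1h_R 41 (adjusted p up to 0.177 in the other fits).

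The mitosis calls depended on single libraries. No member was called without MI1h_R 11, MI1h_R 31, MI6h_R 11 or MI6h_R 21, and 1 without MI6h_R 31, while 13 were called without MI1h_R 41. The median stayed between 1.1 and 1.4 throughout these fits. With the length trend removed 8 members were called, and DESeq2 called 12. Of 19 DNA replication genes edgeR called none, with 6 higher at an unadjusted p under 0.05, a median of 0.34 and 0 calls in DESeq2. The summed mitosis level was 160 to 250 CPM in MI24h and 117 to 246 CPM in Sham, ranges that reach those of MI6h_R but not the lowest library of MI1h_R.

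**Figure D3:**
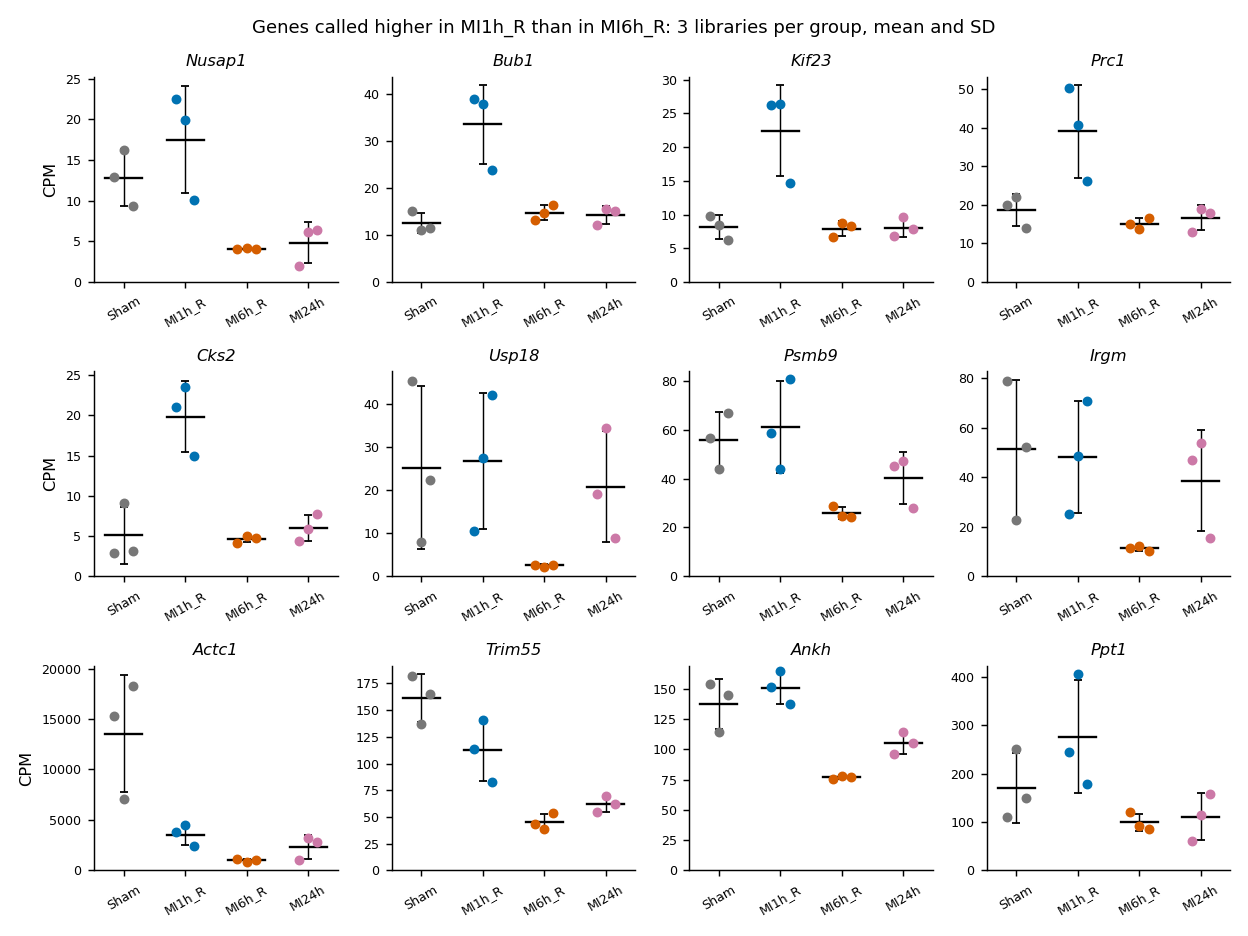
CPM of 12 genes called higher in MI1h_R than in MI6h_R, by library in Sham, MI1h_R, MI6h_R and MI24h, with the mean as a bar and the SD as an error bar (n = 3). In each panel the points of MI1h_R lie above those of MI6h_R, and Nusap1 is at 1.97 to 6.38 CPM in MI24h.

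Interferon response genes had the highest median of the lists, at a log2 fold change of 2.0, and 33 of 34 tested members were positive. Of the 34, Usp18 and Psmb9 passed the test and 32 did not. The summed level of the list was 1820, 2490 and 5610 CPM in MI1h_R from lowest to highest, against 977 to 1160 CPM in MI6h_R. The groups did not overlap in that sum, but the libraries of MI1h_R differed among themselves by more than the lowest of them differed from MI6h_R. For 26 of the 34 every library of MI1h_R was above every library of MI6h_R, which held for 13.2% of all genes. At an unadjusted p under 0.05, 28 were higher, where 2586 of all 11742 genes passed in either direction. Without MI1h_R 41 that count of 28 was 13, although 3775 of 11886 genes then passed in either direction. It was 20 to 30 without any other single library. Sham ranged as widely, at 1610 to 6380 CPM, and MI24h was at 1590 to 4990 CPM.

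Interferon-stimulated genes are switched on through promoter elements that repeat GAAA. The pattern searched was GAAA, any 2 bases (NN) and GAAA, and on either strand it was found in 15 of the 25 tested members with a promoter entry, 60%, against 3.92% of all promoters. The 100 bases before the start are shown for Irgm (chr10:33742579-33742678, minus strand), Irf7 (chr1:205800024-205800123, minus strand), Ifit3 (chr1:241527226-241527325, plus strand) and Gbp2 (chr2:234005627-234005726, plus strand), from RefSeq on build GRCr8. They were picked to show the pattern in both orientations, with Irf7, Ifit3 and Gbp2 chosen after their values were seen. Irgm is not on the list, and Irf7, Ifit3 and Gbp2 are members that were not called. Of the called members, Psmb9 had no match and Usp18 had no promoter entry. Capitals mark the match, which begins 34 bases before the start in Irgm, 69 in Irf7, 44 in Ifit3 and 31 in Gbp2.
Irgm: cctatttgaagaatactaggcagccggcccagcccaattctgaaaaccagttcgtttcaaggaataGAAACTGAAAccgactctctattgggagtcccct
Irf7: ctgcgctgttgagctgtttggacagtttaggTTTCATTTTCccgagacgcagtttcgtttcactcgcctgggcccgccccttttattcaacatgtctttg
Ifit3: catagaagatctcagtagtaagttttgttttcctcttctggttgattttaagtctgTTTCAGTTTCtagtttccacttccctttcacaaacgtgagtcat
Gbp2: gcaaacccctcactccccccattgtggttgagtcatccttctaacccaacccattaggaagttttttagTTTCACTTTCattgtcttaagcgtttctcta

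Usp18, a protease that removes the ubiquitin-like ISG15 and dampens interferon signalling, was at 10.6, 27.3 and 42.1 CPM in MI1h_R 11, 31 and 41, against 2.67, 2.23 and 2.65 CPM in MI6h_R 11, 21 and 31. MI6h_R was uniformly low and MI1h_R spread widely above it. The log2 fold change was 3.40 ± 0.85 (SE), with an adjusted p of 0.0421. Psmb9, a subunit of the immunoproteasome, was at 58.5, 43.8 and 80.9 CPM in MI1h_R, against 28.7, 24.7 and 24.1 CPM in MI6h_R, a log2 fold change of 1.24 (adjusted p = 0.0277). Irgm, an interferon-inducible GTPase and among the 15 largest rises, was at 25.3, 48.8 and 70.6 CPM in MI1h_R, against 11.4, 12.2 and 10.1 CPM in MI6h_R, a log2 fold change of 2.10 (adjusted p = 0.046). Ube2l6, the conjugating enzyme for ISG15, was chosen after its values were seen and rose by a log2 fold change of 1.76 (adjusted p = 0.0423).

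Several members with large fold changes did not pass, and varied widely among the libraries of MI1h_R. Irf7, a transcription factor of the interferon response, was at 81.0, 119 and 628 CPM in MI1h_R, against 52.8, 60.5 and 25.1 CPM in MI6h_R, with an adjusted p of 0.142. Ifit3 was at 47.4, 233 and 405 CPM in MI1h_R, against 79.5, 45.3 and 38.2 CPM in MI6h_R, and the groups overlapped (adjusted p = 0.155). Gbp2, a guanylate-binding protein, was at 64.8, 73.4 and 183 CPM in MI1h_R, against 32.8, 34.0 and 45.4 CPM in MI6h_R (adjusted p = 0.117). Without MI1h_R 41, the library highest in these genes, the median of the list was 1.3, and it was 2.4 without MI1h_R 11. No member was called without MI1h_R 11, MI6h_R 11, MI6h_R 21 or MI6h_R 31, 1 was called without MI1h_R 31 and 2 without MI1h_R 41. Irgm and Ube2l6 were not called in any of the 6 fits that left out a library, with adjusted p-values up to 0.176 and 0.196. DESeq2 called 16 members and the length-corrected fit 1.

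Markers of heart muscle leaned to higher values after early reperfusion, and few passed. All 17 cardiomyocyte markers tested had a positive log2 fold change, with a median of 0.65, and 2 rose. Actc1, cardiac alpha-actin of the thin filament, was at 3797, 4460 and 2423 CPM in MI1h_R 11, 31 and 41, against 1176, 878 and 1040 CPM in MI6h_R 11, 21 and 31. The groups did not overlap, and the log2 fold change was 1.79 ± 0.42 (SE), with an adjusted p of 0.0385. In Sham Actc1 was at 7073 to 18280 CPM, above both. Myl2, the regulatory light chain of ventricular myosin, was counted at a low level in all these libraries, with 40, 82 and 213 counts in MI1h_R, against 9, 2 and 4 counts in MI6h_R. Its log2 fold change was 4.78 ± 0.90 (SE), with an adjusted p of 0.0146, although Sham, where this gene is normally abundant, held only 3.02 to 11.9 CPM. Whether the gene model behind the counts holds the whole Myl2 transcript is not given in the sources used here, so its level and its fold change may not be those of the full gene. Trim55, a ubiquitin ligase of the sarcomere chosen after its values were seen, was at 114, 141 and 82.9 CPM in MI1h_R, against 43.6, 38.3 and 53.3 CPM in MI6h_R, a log2 fold change of 1.32 (adjusted p = 0.0146). For 4 of the 17 markers every library of MI1h_R was above every library of MI6h_R, which held for 13.2% of all genes. Without MI6h_R 31 the median of the markers was 1.4, and without MI6h_R 21 it was 0.34. The number called was 0 without MI6h_R 11 or MI6h_R 21, 1 without MI1h_R 11 or MI1h_R 31, 2 without MI6h_R 31 and 3 without MI1h_R 41. Trim55 was not called without MI1h_R 31, MI6h_R 11 or MI6h_R 21 (adjusted p up to 0.0977).

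Some subunits of the respiratory chain and of ATP synthase were higher in MI1h_R than in MI6h_R, with summed levels below Sham in both. The Nduf genes summed to 3210 to 3810 CPM in MI1h_R and 1640 to 2770 CPM in MI6h_R, against 11700 to 20800 CPM in Sham. For the Atp5 genes the sums were 5420 to 7320, 3380 to 5550 and 23100 to 38400 CPM in the same order. Of 32 Nduf genes of complex I 6 rose, of 15 Cox4 to Cox8 genes (complex IV) 5 rose, of 6 Uqcr genes (complex III) 1 rose, and of 15 Atp5 genes (ATP synthase) 6 rose, and none of these fell. Assembly factors, the inhibitor Atp5if1, Ndufa4 with its paralog and symbols marked as pseudogenes were left out of these counts. The medians were 0.77, 0.65, 0.67 and 0.89 in that order, and every member tested was positive. These are mostly short transcripts, with 25 of the 32 Nduf genes and 12 of the 15 Atp5 genes in the shortest 10% of all genes. With the length trend removed 3, 1, 1 and 2 were called, with medians of 0.48, 0.35, 0.54 and 0.45. Atp5me and Atp5md, small subunits of ATP synthase, and Cox8b, the heart and muscle form of a complex IV subunit, rose by log2 fold changes of 2.42, 2.14 and 2.06, and the counts of Atp5md are identical to those of LOC103693430. Uqcrb, a complex III subunit, was at 110, 121 and 123.1 CPM in MI1h_R, against 34.5, 30.04 and 53.4 CPM in MI6h_R. edgeR gave a log2 fold change of 1.59 ± 0.30 (SE) with an adjusted p of 0.0146, and 1.40 with an adjusted p of 0.0139 once length was removed. Cox6c, a complex IV subunit, was at 335, 406 and 306 CPM in MI1h_R, against 98.4, 101 and 169 CPM in MI6h_R, a log2 fold change of 1.505 (adjusted p = 0.0178) and of 0.97 with length removed (adjusted p = 0.0241). Ndufa4, a complex IV subunit once assigned to complex I and just outside the shortest 10%, was at 246, 337 and 248 CPM in MI1h_R, against 104, 88.3 and 177 CPM in MI6h_R (adjusted p = 0.0413), and lost its call with length removed (adjusted p = 0.0625). The Nduf calls numbered 3 without MI1h_R 11, 0 without MI1h_R 31, MI6h_R 11 or MI6h_R 21, 8 without MI6h_R 31 and 13 without MI1h_R 41. The Cox calls numbered 2, 0, 5, 0, 0 and 4, and the Atp5 calls 2, 1, 9, 0, 0 and 5, without MI1h_R 11, 31 and 41 and MI6h_R 11, 21 and 31. Uqcrb, Cox6c and Atp5md were not called without MI1h_R 31, MI6h_R 11 or MI6h_R 21 (adjusted p up to 0.0977, 0.109 and 0.0977). Atp5me was lost without MI6h_R 11 or MI6h_R 21 (adjusted p up to 0.0895), and Cox8b without each library but MI1h_R 41 and MI6h_R 31 (adjusted p up to 0.168).

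Ribosomal protein genes are also short, and their median was lower once length was removed. Of 72 Rpl and Rps genes, counted without kinases of the same prefix, Rps19bp1 and symbols marked as pseudogenes, 7 rose and none fell, with a median of 0.53, and with the length trend removed 4 rose and the median was 0.15. Rps29, of the small ribosomal subunit, was at 235, 329 and 678 CPM in MI1h_R, against 68.3, 60.3 and 66.2 CPM in MI6h_R. Its log2 fold change was 2.67 ± 0.49 (SE) with an adjusted p of 0.0139, and 1.88 with length removed, and its counts are identical to those of LOC108352650. Rps28 and Rps27, of the same subunit, rose by log2 fold changes of 3.16 and 2.20. Rpl41, which encodes the shortest protein of the ribosome, was at 12.9, 23.2 and 110 CPM in MI1h_R, against 1.99, 2.11 and 2.15 CPM in MI6h_R. That was the largest rise by the naming rule, with a log2 fold change of 4.55 ± 0.64 (SE) and an adjusted p of 0.00395, and MI1h_R 41 was far above the others. ATP8, a mitochondrially encoded subunit of ATP synthase, was the only 1 of 13 mitochondrial genome genes called, and lost its call with length removed (adjusted p = 0.0574). The calls among the 72 ranged from 1 without MI6h_R 11 or MI6h_R 21 to 11 without MI1h_R 41. They numbered 4 without MI1h_R 11, 3 without MI1h_R 31 and 2 without MI6h_R 31. Rps29 and ATP8 were not called without MI6h_R 11 or MI6h_R 21 (adjusted p up to 0.0912 and 0.094). Rps28 was lost without each library of MI6h_R (adjusted p up to 0.102), and Rps27 also without MI1h_R 31 (adjusted p up to 0.107).

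The receptors of the study's title did not differ detectably between the groups. Esrra was at 91.0, 80.2 and 109 CPM in MI1h_R 11, 31 and 41, against 113, 105 and 101 CPM in MI6h_R 11, 21 and 31 (log2 fold change -0.18 ± 0.16 SE, adjusted p = 0.516). Esrrb was near the limit of counting, with 9, 10 and 31 counts in MI1h_R, against 21, 18 and 46 counts in MI6h_R (-0.43 ± 0.67 SE, adjusted p = 0.729). Esrrg was at 7.69, 4.79 and 9.14 CPM in MI1h_R, against 3.88, 3.55 and 6.45 CPM in MI6h_R (0.64 ± 0.44 SE, adjusted p = 0.403). All 3 overlapped between the groups. Ppara, the target of fenofibrate, had a log2 fold change of -0.19 ± 0.69 (SE, adjusted p = 0.891), and Ppargc1a, the coactivator shared by these receptors, 0.59 ± 0.82 (SE, adjusted p = 0.69). Of the 12 ERR and PPAR receptors and coactivators edgeR called none, with 2 lower at an unadjusted p under 0.05 and 0 calls in DESeq2. All 12 together summed to 194 to 280 CPM in MI1h_R and 248 to 288 CPM in MI6h_R, against 652 to 1030 CPM in Sham.

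Of 27 genes of fatty acid uptake and oxidation only Cpt1a was called, and it fell. Cpt1a, the mitochondrial entry enzyme for fatty acids in liver and many other cells, was at 69.7, 73.2 and 79.5 CPM in MI1h_R, against 134, 138 and 139 CPM in MI6h_R. The replicates lay close together and the groups were far apart, with a log2 fold change of -0.89 ± 0.18 (SE) and an adjusted p of 0.0211. The call was kept without MI1h_R 41 and lost without each of the other 5 libraries, with an adjusted p of at most 0.0977. The median of the 27 was 0.26, with 3 higher and 4 lower at an unadjusted p under 0.05. Of 19 citric acid cycle genes edgeR called none, with 7 higher at an unadjusted p under 0.05, a median of 0.41 and 1 call in DESeq2.

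Some endothelial genes fell after early reperfusion. Of 15 endothelial markers 3 fell, none rose and 12 did not pass, with a median of -0.54, and for 8 every library of MI1h_R was below every library of MI6h_R, which held for 11.5% of all genes. The summed level of the markers was 1300 to 1760 CPM in MI1h_R and 1990 to 2340 CPM in MI6h_R. Apln, the peptide apelin released by sprouting endothelium, was at 11.2, 11.2 and 16.8 CPM in MI1h_R 11, 31 and 41, against 72.5, 94.1 and 51.8 CPM in MI6h_R 11, 21 and 31. The log2 fold change was -2.48 ± 0.39 (SE), with an adjusted p of 0.00624, and the call held without each library. Nos3, the endothelial nitric oxide synthase, was at 102, 95.2 and 151.1 CPM in MI1h_R, against 246, 255 and 275 CPM in MI6h_R. It fell by a log2 fold change of -1.15 ± 0.19 (SE, adjusted p = 0.00803), and the call was lost without MI1h_R 31 (adjusted p = 0.0569). Angpt2, the angiopoietin stored in endothelial cells that loosens vessels, was at 13.1, 17.6 and 20.3 CPM in MI1h_R, against 36.4, 39.9 and 38.3 CPM in MI6h_R. In MI24h Angpt2 was higher still, at 46.1 to 113 CPM. The log2 fold change was -1.17 ± 0.29 (SE, adjusted p = 0.0423), and only the fit without MI1h_R 41 kept the call. Thbd, thrombomodulin, the endothelial brake on clotting, also fell (-1.24, adjusted p = 0.0421), again with the call kept only without MI1h_R 41. With the length trend removed 5 endothelial markers were called. The number lower was 2 without MI1h_R 11 or any 1 of the MI6h_R libraries, 1 without MI1h_R 31 and 6 without MI1h_R 41.

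Akap12, a scaffold for protein kinase A, kept its call in every alternative tried. It was at 71.7, 132 and 137 CPM in MI1h_R, against 495, 538 and 493 CPM in MI6h_R. The log2 fold change was -2.16 ± 0.27 (SE), with an adjusted p of 0.00238, and the highest adjusted p without any 1 library was 0.011. In Sham it was at 76.8 to 136 CPM, in the range of MI1h_R, and in MI24h at 221 to 330 CPM. Krt7, a keratin of simple epithelia such as the mesothelium, was at 3.42, 4.64 and 2.92 CPM in MI1h_R, against 18.5, 23.3 and 14.4 CPM in MI6h_R. It was at most 0.283 CPM in Sham and at most 4.37 CPM in MI24h, so MI6h_R stood above all 3 groups. This was a log2 fold change of -2.35 (adjusted p = 0.00624). Grem1, a secreted BMP antagonist, and Nr2f2, a nuclear receptor of venous endothelium, were chosen after their values were seen and fell by -2.43 and -1.02, both with an adjusted p of 0.00624. Ankh, a pyrophosphate transporter chosen in the same way, went the other way, at 137 to 164 CPM in MI1h_R, against 75.7 to 78.3 CPM in MI6h_R, a log2 fold change of 0.97 ± 0.14 (SE, adjusted p = 0.00395). Krt7, Grem1, Nr2f2 and Ankh stayed called without each library.

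**Figure D4:**
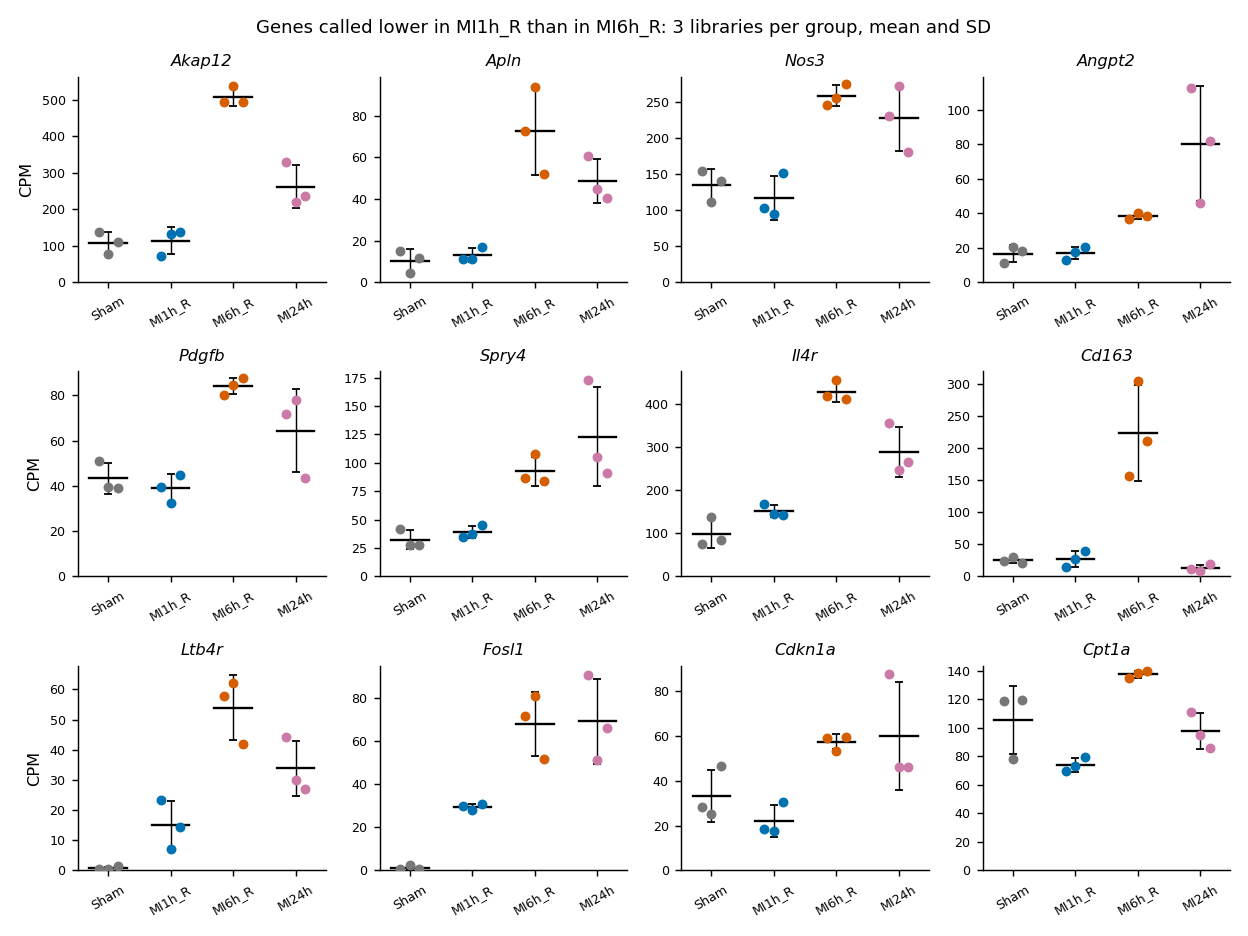
CPM of 12 genes called lower in MI1h_R than in MI6h_R, by library in Sham, MI1h_R, MI6h_R and MI24h, with the mean as a bar and the SD as an error bar (n = 3). Points of MI1h_R lie below those of MI6h_R in each panel, and for Cd163 the values of MI24h, at 7.64 to 18.6 CPM, are also far below MI6h_R.

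Some genes that respond to growth factor signalling through the kinase ERK also fell. In a list of 12 such genes drawn up after values were seen, 5 fell, none rose and 7 did not pass, with a median of -0.85, and the list is no independent evidence of its direction. Spry4, a feedback inhibitor of receptor tyrosine kinases, was at 34.7, 37.7 and 45.2 CPM in MI1h_R, against 86.4, 107 and 84.0 CPM in MI6h_R, a log2 fold change of -1.24 ± 0.24 (SE, adjusted p = 0.0167). Spry2, its relative, fell by a log2 fold change of -0.89. Dusp5, Dusp6 and Dusp7, phosphatases that switch ERK off, fell by log2 fold changes of -1.15, -0.92 and -0.82. Pgf, placental growth factor, was at 18.6, 18.6 and 17.8 CPM in MI1h_R, against 62.8, 42.9 and 36.05 CPM in MI6h_R, and Pdgfb, a growth factor for pericytes, at 39.4, 32.6 and 44.9 CPM in MI1h_R, against 80.2, 84.5 and 87.5 CPM in MI6h_R. Both were chosen after their values were seen, and fell by -1.36 and -1.11 (adjusted p = 0.0195 and 0.018), and neither was called without MI1h_R 11, MI1h_R 31, MI6h_R 11 or MI6h_R 21. Of the 12 list members none was called without MI1h_R 11, MI1h_R 31, MI6h_R 11 or MI6h_R 21, 4 without MI6h_R 31 and 6 without MI1h_R 41. Over the same fits the median stayed between -0.93 and -0.77.

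Immediate early genes of the AP-1 family leaned to lower values as well. Of 17 tested 2 fell and none rose, with 15 negative and a median of -0.44. Fosl1, a Fos relative, was at 29.8, 28.1 and 30.8 CPM in MI1h_R, against 71.9, 80.9 and 51.9 CPM in MI6h_R, and at most 2.46 CPM in Sham. Its log2 fold change was -1.21 ± 0.30 (SE, adjusted p = 0.0413). Maff, a small Maf factor, fell by a log2 fold change of -1.01 (adjusted p = 0.0308). Neither was called without MI1h_R 11, MI1h_R 31, MI6h_R 11 or MI6h_R 21. Arc, an immediate early gene best known from neurons, was among the 15 largest falls, at 7.15, 3.92 and 7.42 CPM in MI1h_R, against 24.1, 16.2 and 26.2 CPM in MI6h_R (-1.84 ± 0.32 SE, adjusted p = 0.00915), with the call lost only without MI1h_R 31 (adjusted p = 0.0609). Cdkn1a, the cell cycle inhibitor p21, was the only one of 17 cell death genes called, at 18.6, 17.4 and 30.3 CPM in MI1h_R, against 59.1, 53.5 and 59.4 CPM in MI6h_R. It fell by a log2 fold change of -1.37 ± 0.28 (SE, adjusted p = 0.0185), and the call was lost without MI1h_R 11, MI1h_R 31, MI6h_R 11 or MI6h_R 21 (adjusted p up to 0.111).

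Neutrophil genes leaned to lower values after early reperfusion, and 1 passed. Of 16 markers 1 fell, none rose, 15 were negative, and the median was -1.2. S100a8, S100a9 and Trem1 differed less than that median, with log2 fold changes of -0.0508, -0.444 and -0.285 (edgeR adjusted p = 0.968, 0.62 and 0.808). The summed level was 561 to 1030 CPM in MI1h_R and 1450 to 1600 CPM in MI6h_R, without overlap, and 35.7 to 189 CPM in Sham. For 10 of the 16 every library of MI1h_R was below every library of MI6h_R, which held for 11.5% of all genes. At an unadjusted p under 0.05, 10 were lower, where 2586 of all 11742 genes passed in either direction. The called marker was Ltb4r, the receptor that guides neutrophils to leukotriene B4, at 23.4, 7.18 and 14.4 CPM in MI1h_R, against 57.7, 62.3 and 41.8 CPM in MI6h_R. edgeR gave a log2 fold change of -1.85 ± 0.36 (SE, adjusted p = 0.0178), and it was not called without MI1h_R 31, MI6h_R 11 or MI6h_R 21. Alox5, the enzyme that starts leukotriene synthesis, fell too, by a log2 fold change of -1.34 (adjusted p = 0.0447), and only the fit without MI1h_R 41 kept that call. DESeq2 called 5 of the neutrophil markers.

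Of 11 resident-type macrophage markers 1 fell. Cd163, the scavenger receptor for haemoglobin bound to haptoglobin, was at 14.9, 26.8 and 38.8 CPM in MI1h_R 11, 31 and 41, against 157, 305 and 211 CPM in MI6h_R 11, 21 and 31. That was the largest fall by the naming rule, with a log2 fold change of -3.06 ± 0.58 (SE) and an adjusted p of 0.0146. It was lost without MI1h_R 11, MI1h_R 31 or MI6h_R 21 (adjusted p up to 0.076). Cd163 was at 21.1 to 29.8 CPM in Sham, so MI6h_R alone stood high. Mrc1, the mannose receptor, chosen after its values were seen, was at 168, 189 and 172 CPM in MI1h_R, against 287, 424 and 411 CPM in MI6h_R, and did not pass (adjusted p = 0.0687). The other resident-type markers did not follow, since 6 of 11 were positive and the median was 0.13. Of 12 markers of recruited macrophages edgeR called none, with 1 higher and 2 lower at an unadjusted p under 0.05 and 0 calls in DESeq2.

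Red cell genes had lower values in MI1h_R as well. All 5 tested were negative, with a median of -2.5, and their summed level was 900 to 2380 CPM in MI1h_R and 2420 to 5410 CPM in MI6h_R, while Sham was at 2400 to 4200 CPM. Hba-a1, a globin chain of haemoglobin, was at 898, 2379 and 1115 CPM in MI1h_R, against 3388, 5377 and 2414 CPM in MI6h_R (adjusted p = 0.148). Slc4a1, the anion exchanger of the red cell membrane, was near the limit of counting with 10, 15 and 21 counts in MI1h_R, against 97, 255 and 95 counts in MI6h_R (adjusted p = 0.0622). edgeR called none of the 5, with 3 lower at an unadjusted p under 0.05, and DESeq2 called 2. The part of blood cells in the difference of Cd163 or of the neutrophil genes was not tested.

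Among interleukins and their receptors 2 of 22 fell and none rose, with a median of -0.78. Il10, an anti-inflammatory cytokine, was counted with 3, 0 and 4 counts in MI1h_R, against 66, 33 and 96 counts in MI6h_R, with an adjusted p of 0.0118. It was lost without MI1h_R 31 (adjusted p = 0.0609). Osmr, the receptor for oncostatin M, fell by a log2 fold change of -1.09 (adjusted p = 0.0462), with the call kept only without MI1h_R 41. Il4r, a receptor chain for interleukin signals that is not on that list, was at 168, 146 and 143 CPM in MI1h_R, against 419, 456 and 412 CPM in MI6h_R, a log2 fold change of -1.49 ± 0.21 (SE) with an adjusted p of 0.00395, and it stayed called without each library. In MI24h Il4r was at 246 to 355 CPM and in Sham at 74.9 to 137 CPM.

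Chemokine genes were called in both directions. Of 24 tested 1 rose and 2 fell, with a median of 0.11. Cxcr4, the receptor for CXCL12, was at 75.1, 118 and 82.9 CPM in MI1h_R, against 50.4, 41.5 and 29.2 CPM in MI6h_R, a log2 fold change of 1.19 ± 0.23 (SE, adjusted p = 0.0178). It was lost without MI1h_R 31, MI6h_R 21 or MI6h_R 31 (adjusted p up to 0.105). Cxcl3, a neutrophil attractant, was counted with 5, 37 and 18 counts in MI1h_R, against 187, 269 and 371 counts in MI6h_R, and had no count in any Sham library. This was a log2 fold change of -3.42 ± 0.75 (SE, adjusted p = 0.0306), kept only without MI1h_R 41. Pf4, platelet factor 4, was at 5.99, 10.2 and 4.51 CPM in MI1h_R, against 27.3, 28.7 and 14.8 CPM in MI6h_R (-1.77 ± 0.42 SE, adjusted p = 0.0394). It lies in the shortest 10%, whose median was positive, and its log2 fold change was -2.58 with length removed. Without MI1h_R 11, MI1h_R 31, MI6h_R 11 or MI6h_R 21 it was not called.

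Few genes of oxygen shortage were called. Of 24 hypoxia response genes edgeR called none, with 4 lower at an unadjusted p under 0.05, a median of -0.11 and 2 calls in DESeq2. Of 20 glycolysis genes only Pfkl, the liver type of phosphofructokinase, was called, at 83.2, 68.1 and 112 CPM in MI1h_R, against 179, 159 and 120 CPM in MI6h_R. Its log2 fold change was -0.80 ± 0.21 (SE, adjusted p = 0.0469), and MI24h was well above both at 292 to 453 CPM. The call was lost with the length trend removed (adjusted p = 0.0596) and without MI1h_R 11, MI1h_R 31, MI6h_R 11 or MI6h_R 21. The element ACGTG, part of the site for hypoxia-inducible factors, was in 10 of 17 hypoxia promoters and 8 of 18 glycolysis promoters with an entry, against 19.3% of all promoters.

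The matrix proteases that passed fell and the lysosomal enzymes that passed rose. Of 18 matrix proteases and inhibitors 2 fell and none rose, with a median of -0.56. Adamts1, a protease of the proteoglycan versican, was at 188, 252 and 228 CPM in MI1h_R, against 378, 392 and 450 CPM in MI6h_R (-0.87 ± 0.19 SE, adjusted p = 0.0304). Adamts15, its relative, fell by a log2 fold change of -1.47 (adjusted p = 0.0223). Of 21 lysosomal enzymes, a list drawn up after values were seen, 4 rose and none fell, with a median of 0.27. Ppt1, which removes palmitate from proteins, was at 245, 405 and 179 CPM in MI1h_R, against 120, 91.2 and 86.2 CPM in MI6h_R (1.48 ± 0.35 SE, adjusted p = 0.0404). Aga and Plbd1 rose by log2 fold changes of 0.90 and 0.80. The calls of Adamts1, Adamts15, Ppt1, Aga and Plbd1 were kept without MI1h_R 41 and lost without each of the other 5 libraries.

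Among the remaining large falls by the naming rule were receptors, a channel and secreted or membrane proteins. Ednrb, the endothelin receptor type B, Ptgir, the prostacyclin receptor, and Trpv4, a calcium channel that senses stretch, fell by log2 fold changes of -1.41, -1.39 and -1.61. Crim1, a membrane protein that binds growth factors, Tinagl1, a secreted matrix protein, and Fjx1, a Golgi kinase relative, fell by -1.44, -1.69 and -1.41. Ptgir was at 4.64 to 8.88 CPM in MI1h_R and 13.9 to 20.6 CPM in MI6h_R, and Trpv4 at 3.73 to 7.49 CPM in MI1h_R and 15.4 to 17.5 CPM in MI6h_R. Tmem176b, a membrane protein of antigen-presenting cells, rose, at 84.6, 34.5 and 33.7 CPM in MI1h_R, against 17.8, 8.97 and 9.04 CPM in MI6h_R (2.09 ± 0.35 SE, adjusted p = 0.00817). Its call was lost only without MI6h_R 21 (adjusted p = 0.0574). Ednrb, Ptgir and Crim1 were called in none of the fits that left out a library other than MI1h_R 41, and Trpv4, Tinagl1 and Fjx1 lost their call without MI1h_R 11 or MI1h_R 31 (adjusted p up to 0.119). Trpv4 and Fjx1 also lost it without MI6h_R 21, and Tinagl1 and Fjx1 without MI6h_R 11. Sod1, the cytosolic superoxide dismutase, was the only one of 17 antioxidant genes called (0.80, adjusted p = 0.0394), and it was not called with length removed (adjusted p = 0.0924).

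Several lists held no called gene in edgeR. Their counts at an unadjusted p under 0.05 stand beside 2586 of all 11742 genes, in either direction. Of 22 fibroblast and matrix genes 7 were higher at an unadjusted p under 0.05 (2 calls in DESeq2), of 16 TGF-beta genes 3 were higher and 5 lower (3 calls), and of 11 smooth muscle and pericyte genes 3 were higher and 4 lower (3 calls). Of 20 genes of the unfolded protein response 3 were lower (0 calls), of 10 heat shock chaperones 3 were higher (1 call), and of 13 clock genes 3 were lower (0 calls). Of 7 genes of the fetal programme 2 were higher (1 call) and of 7 MHC class II genes 1 was lower (1 call). None of 11 T and NK cell genes or 4 B cell genes passed an unadjusted p of 0.05, and DESeq2 called none.

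The called genes were placed beside the groups without reperfusion or infarction as a description. The mean of MI24h was nearer to MI6h_R than to MI1h_R for 121 of the 148 genes higher in MI1h_R and for 112 of the 135 lower ones, which held for 63.7% of all genes tested. The mean of Sham was nearer to MI1h_R for 111 of the 148 and for 117 of the 135, and over all genes 37% were nearer to MI6h_R. Cd163, Krt7 and Cxcr4 were among the exceptions, since MI24h was at 7.64 to 18.6, 2.87 to 4.37 and 145 to 161 CPM for them.

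The same 2 timings with F give an independent set of 6 libraries. Between MI1h_F and MI6h_F edgeR called none of the 11742 genes, with 1597 at an unadjusted p under 0.05, which is 13.6% of those tested, while DESeq2 called 88 and limma-voom 1392. Without MI6h_F 1 the edgeR count was 233. Of the 148 genes higher in MI1h_R, 99 were also positive in the F groups, 66.9% against 52.2% of all genes, with a median log2 fold change of 0.17. Of the 135 lower genes 100 were also negative, 74.1% against 47.8% of all genes, with a median of -0.13. At an unadjusted p under 0.05, 34 of the 135 were lower with F, 25.2% against 6.12% of all genes, and 20 of the 148 were higher, 13.5% against 7.48%.

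Several of the called genes had the same sign and a low p in the F groups. Apln was at 4.73, 13.9 and 8.34 CPM in MI1h_F 1, 4 and 5, against 30.7, 26.4 and 43.8 CPM in MI6h_F 1, 2 and 4, a log2 fold change of -1.90 (unadjusted p = 0.000114). Akap12 was at 61.2, 80.3 and 82.4 CPM in MI1h_F, against 131, 224 and 179 CPM in MI6h_F (-1.25, unadjusted p = 0.000145). Spry4 had a log2 fold change of -1.14 (unadjusted p = 0.000154), Krt7 -1.87 (0.000122), Angpt2 -1.05 (0.00207) and Fosl1 -1.13 (0.00143). Actc1 was at 3286, 4002 and 3557 CPM in MI1h_F, against 2076, 930 and 877 CPM in MI6h_F (1.48, unadjusted p = 0.00223). None of these passed adjustment over all genes in the F groups.

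Other called genes overlapped between the F groups. Cd163 was at 11.4, 46.5 and 39.1 CPM in MI1h_F, against 21.3, 24.8 and 40.9 CPM in MI6h_F, Nos3 at 93.4 to 124 CPM in MI1h_F and 118 to 130 CPM in MI6h_F. Interferon response genes had a median of -0.73 with F against 2.0 without, and mitosis genes 0.45 against 1.3. The summed mitosis level was 539 to 1130 CPM in MI1h_F and 525 to 975 CPM in MI6h_F, above that of MI6h_R in all 6. A test of the difference between the contrasts called 1 of 11742 genes, Rpl41, 0.00852% of those tested, with 1551 at an unadjusted p under 0.05. For the other genes named here the contrasts without F and with F are therefore not shown to differ.

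**Figure D5:**
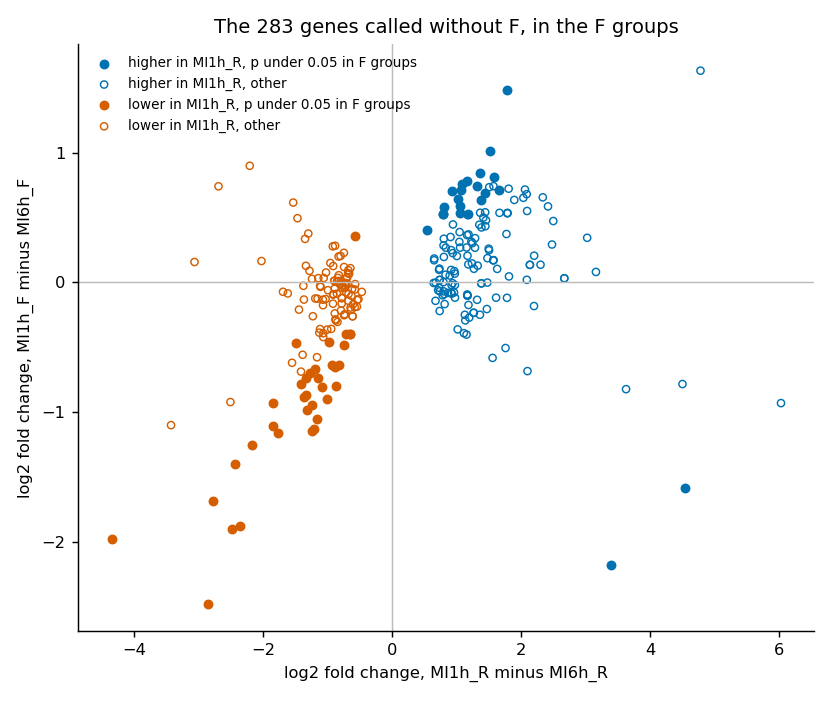
Log2 fold change of MI1h_F over MI6h_F against that of MI1h_R over MI6h_R for the 283 genes called without F. Filled points mark genes at an unadjusted p under 0.05 in the F groups. Of the 148 genes to the right of 0, 99 lie above 0 on the F axis, and of the 135 to the left, 100 lie below it.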

How the data were processed

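RNA was isolated with RNeasy columns and mRNA libraries were made with NEBNext Ultra, per the labels' protocols. The deposited tables hold, per the submitters' processing notes, estimated counts from RSEM 1.3.1 after alignment with STAR 2.7.3a to rn7, and the authors' TPM. Annotation and strandedness are not given in the sources used here, so genes that share or overlap sequence may exchange counts. Both tables list 17085 symbols for 21 libraries, and the estimated counts are whole numbers in the file.

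The count analysis used edgeR 4.0.16 under R 4.3.3. filterByExpr kept 11742 genes, TMM set the scale, and a quasi-likelihood fit with 1 term per group used all 21 libraries, with MI1h_R minus MI6h_R as a contrast. Genes were called at a Benjamini-Hochberg adjusted p under 0.05, and the procedure was tested on simulated data. The comparison of 3 libraries with 3 is limited by the spread between libraries, which the fit pooled over all 7 groups. That pool includes Sham and the groups with F, and a fit of only the groups compared called 86 genes. Intervals were not given for counting error alone. Relative length is the ratio of counts to TPM, scaled by the median of each library, and the trend was removed with a lowess curve of span 0.3. Named genes are 5 receptors, up to 15 called genes in each direction with the largest fold change, no overlap and a mean CPM not under 10, and called members of lists in order of p. Members and lists were chosen with earlier results of these data known. Of 665 symbols on 35 lists, 578 were found in the table, 16 of them by an alias, and 568 were tested. In families picked by symbol, identical profiles were kept once and pseudogenes, assembly factors and unrelated genes of the same prefix were left out. Further lists on ERK feedback and lysosomal enzymes were drawn up after values were seen, and some members of lists are counted but not reported by name here.

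Alternatives used DESeq2 1.42.0, limma 3.58.1 (voom with quality weights, and a trend on log2(TPM + 1)), other scalings and filters, and each library left out. Whether library numbers pair the groups is not stated. Deviations of same-numbered libraries correlated at 0.293 for number 11 and -0.138 for number 31. Pairs of unlike number lay between -0.401 and 0.211, and these few pairs cannot decide the question. Replicates differed by more than sampling noise, with a chi-square per degree of freedom between 28 and 105. Promoters are RefSeq sequences on GRCr8, a build other than that of the counts, matched by symbol. Figures were drawn with Python 3.11.15, pandas 2.3.3 and matplotlib 3.10.9.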

Additional observations from a re-analysis of the deposited data

Results flagged for a closer look

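Rpl41 was the only gene for which the early-late contrast differed between the groups without F and with F in edgeR, and the difference of the log2 fold changes was 6.13 ± 0.90 (SE, adjusted p = 0.022). It was at 12.9, 23.2 and 110 CPM in MI1h_R 11, 31 and 41, against 1.99, 2.11 and 2.15 CPM in MI6h_R 11, 21 and 31. In the F groups it was at 1.41, 0.251 and 1.37 CPM in MI1h_F 1, 4 and 5, against 2.99, 3.88 and 2.17 CPM in MI6h_F 1, 2 and 4. Sham was at 4.72 to 7.01 CPM and MI24h at 2.48 to 3.91 CPM. The gene is among the shortest of those tested, at percentile 0.502 of length, and with the length trend removed the difference was 5.61 ± 0.88 (SE) with an adjusted p of 0.0582. The adjusted p was 0.136, 0.118 and 0.112 without MI6h_R 11, 21 or 31, 0.0799 and 0.0853 without MI1h_F 4 or 5, and 0.0525 and 0.081 without MI6h_F 1 or 2. In these 7 fits the difference stayed between 5.66 and 6.38. Without MI1h_R 41 the difference was 4.69 (adjusted p = 0.00709). The part of transcript length in this difference was not tested.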

How the results depend on the processing

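For 283 called genes (148 higher, 135 lower) the counts stayed within 1.5 times with median-of-ratios factors, without mitochondrial genome genes, with identical genes kept once and with the length trend removed. Library size alone gave 180 called and 74 higher. Without the low-count filter 90 were higher. A fit of only the groups compared gave 86 (58 higher, 28 lower), and without the shortest 10% of genes 111 (39 and 72). DESeq2 gave 923 (458 and 465), limma-voom with quality weights 3020 (1369 and 1651) and the limma trend on TPM 966 (90 and 876). Leaving out single libraries gave 22 to 1281 called, 3 to 551 higher and 9 to 730 lower. In the F groups the count was 0, against 1 in only the groups compared, 88 in DESeq2, 1392 in limma-voom and 0 to 233 without single libraries. For the difference of the contrasts 1 gene was called, against 2 in only the groups compared, 0 with the length trend removed, without the shortest 10% of genes or on TPM, 57 in DESeq2, 1271 in limma-voom and 0 to 3 without single libraries.

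Only the numbers 11 and 31 occur in both MI1h_R and MI6h_R, and whether they pair libraries is not stated. With the number as a replicate block 3 genes were called, 0 higher and 3 lower, and 0 for the difference of the contrasts. The direction turned for Esrrb without MI6h_R 31 (log2 fold change 0.122, with -1.11 to 0.122 over the 6 libraries left out) and for Ppara without MI1h_R 11 (0.00367) and without MI6h_R 31 (0.808, with -0.62 to 0.808 over the 6), none of them called. Of 75 called genes named, 13 lost their call with the length trend removed, 40 in only the groups compared, 18 with library size alone, 11 on TPM and 0 in DESeq2. The cause of these shifts was not tested. Depth limits genes of few counts, such as Il10, with 0 to 4 counts in MI1h_R, and Esrrb, with 9 to 31.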
